A study of Mus musculus with 78 samples.

Results

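Cerebral arteries of sham-operated mice that had fasted intermittently were compared with those of sham-operated mice that had eaten freely, 30 days after surgery. The comparison rested on 4 fasting libraries (treatment label SHAM30IF) and 4 free-fed libraries (SHAM30AL), 8 of the 78 RNA-seq libraries of the series, chosen by that label alone. All 8 came from male wild-type C57Bl6 mice. The fasting mice were kept on intermittent fasting (IF) for 3 months and the free-fed mice ate ad libitum (AL) for the same time, and both then had the sham operation. The rest of the series holds both diets on days 1, 7, 14 and 21 after sham surgery (31 libraries) and after stenosis of both carotid arteries (BCAS), a narrowing that lowers blood flow to the brain, on those days and on day 30 (8 libraries on day 30). Age, the fasting schedule, the diet after surgery and the hour at which tissue was taken are not given in the sources used here. The labels do not say that each library came from a separate animal, so the p-values measure spread between libraries only. That spread was estimated within groups over all 78 libraries, unless the 8 are said to be fitted alone.

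In the circadian clock, the activators Arntl (BMAL1), Clock and Npas2 bind E-box sequences and switch on their own repressors, the Per, Cry, Nr1d and Bhlhe genes, and the output factors Dbp, Tef and Hlf, which act through D-box sequences that Nfil3 represses. Vessel walls carry such a clock in smooth muscle and endothelium, and feeding time is one of the cues that set peripheral clocks. In the heat shock response, Hsf1 binds heat shock elements and induces chaperones that refold proteins, and immediate early genes such as Jun and Atf3 are induced soon after many stimuli, tissue handling among them. Fasting is also known to shift lipid handling in liver, with lower sterol synthesis and higher fatty acid use.

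The 4 AL libraries held 16201149, 16169730, 15832060 and 23210190 fragments and the 4 IF libraries 17859815, 19979579, 18720641 and 15747401 fragments. Levels are in FPKM (fragments per kilobase of gene, scaled to depth), and 1 FPKM corresponded to between 15.8 and 23.02 fragments per kb of gene in these libraries. All 20 contractile smooth muscle markers were present in both groups, and they summed to 11064 to 14875 FPKM in AL and 10314 to 14423 FPKM in IF. Transcripts of the mitochondrial genome took 5.98% to 6.51% of fragments in AL and 6.81% to 7.20% in IF, ranges that did not overlap, although none of the 13 mitochondrial genes passed the test. The part of this share in the results was not tested.

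At a Benjamini-Hochberg adjusted p under 0.05 (limma on log2(FPKM + 1)), 757 of 15707 genes differed between the diets (4.82%). Of these, 267 were higher with fasting (1.7% of genes tested) and 490 were lower (3.12%). Most changes were small, with 64 rises and 71 falls over 1.5-fold, and 8 rises and 22 falls over 2-fold. The 4 libraries of one diet lay wholly apart from those of the other for 1896 genes (12.1%), with IF above AL for 843 (5.37%) and below for 1053 (6.7%). In bulk tissue, a lower level can mean fewer cells of a type or less RNA per cell, and these cannot be told apart here. The count fell to 344 genes without AL replicate 1 and to 407 without IF replicate 3, and was 409 when the 8 libraries were fitted alone. Of these, 334, 392 and 311 were among the 757.

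Clock genes held the largest rise, Dbp, and the smallest p of all genes, Nfil3. Of 13 repressors, 6 rose with fasting and none fell, and of 6 activators, 2 fell and none rose (1.7% of all genes were higher and 3.12% lower). Among the 4 output factors, Dbp and Tef rose and Nfil3 fell. The median log2 change was 0.49 over the repressors and -0.16 over the activators, against 0.00036 over all genes tested. A list of 15 other clock-controlled genes held 1 that rose (Tspan4) and 3 that fell (Leo1, Rgs16 and Noct). With the 8 libraries fitted alone, 3 of the repressors rose. Clock gene levels depend on the hour at which tissue was taken, which is not given. Diet and a difference in that hour therefore cannot be told apart for these genes.

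Dbp, a D-box activator whose level swings widely over the day in many tissues, stood at 6.72, 7.61, 9.79 and 7.74 FPKM in the AL libraries and at 39.1, 26.4, 40.04 and 28.3 FPKM in the IF libraries. The lowest fasting library was well above the highest free-fed one, and the log2 change was 1.93 ± 0.26 (SE, adjusted p = 5.27e-07). Nfil3, the repressor that competes for the same D-boxes, ran the other way, at 23.7, 21.1, 19.5 and 16.96 FPKM in AL and 3.00, 5.16, 2.49 and 5.01 FPKM in IF. Its log2 change was -2.15 ± 0.18 (adjusted p = 1.37e-13). Tef, a further D-box activator, rose from 15.3 ± 1.47 to 29.8 ± 2.53 FPKM (SD, n = 4 each), by 0.92 ± 0.12 on the log2 scale. Hlf, the remaining member of that family, did not pass the test (27.8 ± 2.92 against 31.02 ± 2.13 FPKM, adjusted p = 0.513).

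Among the repressors, Per3 was at 2.93, 2.47, 3.69 and 3.52 FPKM in AL and 9.09, 7.59, 8.99 and 8.10 FPKM in IF, a log2 change of 1.19 ± 0.12 (adjusted p = 4.08e-11). Nr1d2, a nuclear receptor that represses Arntl, rose from 12.6 ± 1.30 to 23.8 ± 2.27 FPKM (log2 change 0.86 ± 0.14). Cry2, the partner of the Per proteins, rose from 4.76 ± 0.926 to 7.29 ± 0.922 FPKM (0.53 ± 0.094). Ciart, a repressor of the Clock and Arntl complex, was at 2.71, 2.56, 3.34 and 2.71 FPKM in AL and 9.84, 4.51, 9.16 and 4.47 FPKM in IF (0.99 ± 0.29, adjusted p = 0.0305). Bhlhe41, which competes with the activators at E-boxes, rose from 5.29 ± 0.496 to 7.82 ± 0.879 FPKM, and Per2 from 4.64 ± 1.25 to 7.55 ± 0.809 FPKM. Nr1d1 and Per1 overlapped between the diets and did not pass, with log2 changes of 0.76 ± 0.25 (adjusted p = 0.0652) and 0.42 ± 0.22 (adjusted p = 0.304). Of these repressors, the calls of 3 depended on single libraries. Ciart was lost without AL replicate 1, 2 or 4 or IF replicate 1 or 3 (adjusted p up to 0.142), Per2 without AL replicate 2 or IF replicate 1, 2 or 3 (up to 0.164), and Bhlhe41 without IF replicate 3 (0.0554). Cry2 did not pass with the 8 libraries fitted alone (adjusted p = 0.0575).

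The activator Arntl fell from 5.32, 4.59, 4.61 and 4.16 FPKM in AL to 1.51, 1.90, 1.18 and 1.86 FPKM in IF, by a log2 change of -1.12 ± 0.15 (adjusted p = 2.95e-07). Npas2, which can stand in for Clock, fell from 1.99 ± 0.464 to 0.581 ± 0.349 FPKM (-0.93 ± 0.16). Clock itself lay lower in all 4 IF libraries (3.70 ± 0.190 against 4.52 ± 0.391 FPKM) and did not pass (adjusted p = 0.0795). Tspan4, a membrane tetraspanin, was at 22.4, 21.7, 26.6 and 23.6 FPKM in AL and at 52.5, 46.9, 47.96 and 43.7 FPKM in IF, a log2 change of 0.99 ± 0.12 (adjusted p = 2.92e-08). The PAF complex subunit Leo1 fell from 6.55 ± 0.560 to 4.06 ± 0.359 FPKM (-0.58 ± 0.10). Noct did not pass without AL replicate 1 (adjusted p = 0.147), nor Rgs16 without AL replicate 1 or IF replicate 1 (up to 0.15).

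**Figure D1:**
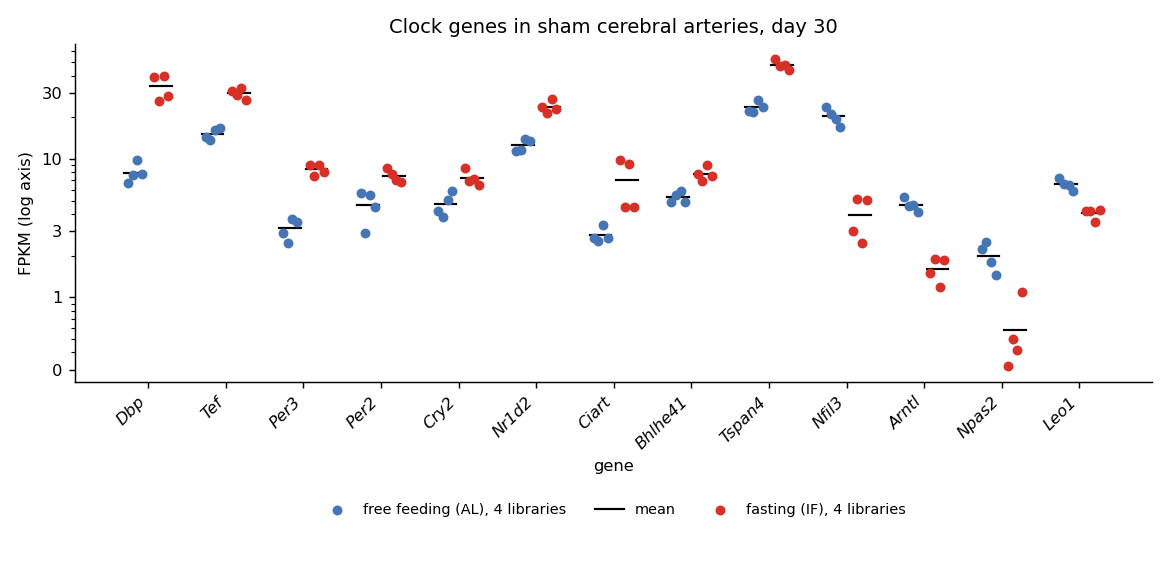
FPKM of 13 clock genes (log axis) in each of the 4 free-fed and 4 fasting libraries of sham mice on day 30, with group means as bars. Every fasting library lies above every free-fed one from Dbp to Tspan4, and below in Nfil3, Arntl, Npas2 and Leo1.

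The fasting libraries differed among themselves across these genes. IF replicates 1 and 3 had the higher Dbp and Ciart and the lower Nfil3 of the 4, and Nr1d1 was at 31.1, 18.6, 40.4 and 26.1 FPKM in replicates 1 to 4. The mean log2(FPKM + 1) over the 13 repressors was 3.72 and 3.73 in replicates 1 and 3, 3.50 and 3.51 in replicates 2 and 4, and 3.07 to 3.25 in the AL libraries. The lower fasting libraries thus still lay above all free-fed ones.

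Promoter sequences are shown for clock genes that rose and whose RefSeq promoter (GRCm38.p6, 250 bases before to 50 after the start) holds a motif through which the clock acts. The E-box CACGTG, which reads the same on both strands, was searched in the promoters of the 7 clock genes that rose and have an entry. It was in 4 of these 8 promoters, 50% against 7.15% of all 32851 promoters. The 4 belonged to 3 of the 7 genes, Bhlhe41, Ciart and Tef. It was in 2 of 14 promoters (14.3%) of clock genes that did not pass and in 0 of 4 of those that fell. Those 2 belonged to 2 of 8 genes, Cry1 and Per1, so the sets differed less by gene than by promoter. The D-box TTATGTAA, searched on both strands, was in the promoter of Per3 (12.5% of the 8) against 0.938% of all. The lines give 80 bases each, 5′ to 3′ on the gene's strand, with the motif in capitals.
Ciart (chr3:95882266-95882345, minus strand): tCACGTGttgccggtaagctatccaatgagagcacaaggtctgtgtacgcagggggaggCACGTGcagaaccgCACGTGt
Tef (chr15:81802509-81802588, plus strand): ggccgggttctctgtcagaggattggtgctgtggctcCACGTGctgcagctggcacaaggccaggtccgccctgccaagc
Bhlhe41 (chr6:145865531-145865610, minus strand): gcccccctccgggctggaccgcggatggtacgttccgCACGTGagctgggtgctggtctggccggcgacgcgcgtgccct
Per3 (chr4:151044804-151044883, minus strand): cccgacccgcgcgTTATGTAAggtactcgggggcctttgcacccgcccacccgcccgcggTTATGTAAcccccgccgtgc
The Ciart window holds 3 E-boxes, which start 116, 58 and 44 bases before the gene's start, and the Per3 window holds 2 D-boxes, 205 and 158 bases before it. A match says only that the letters are present, and binding was not measured.

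Chaperone genes held the largest falls, Hspa1b and Hspa1a. In 3 lists of chaperones and cochaperones, none rose and 6 of 11 fell in the heat shock protein 70 and 110 family, 12 of 20 among the heat shock protein 40 and BAG cochaperones, and 9 of 20 among heat shock protein 90, the chaperonins and the small heat shock proteins (3.12% of all genes were lower). The medians were -0.28, -0.44 and -0.24 on the log2 scale. Without AL replicate 1 the counts were 4, 8 and 5, and with the 8 libraries fitted alone they were 4, 10 and 4.

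Hspa1b, an inducible heat shock protein 70, was at 148, 55.8, 44.5 and 21.2 FPKM in AL and at 8.38, 9.82, 6.76 and 9.68 FPKM in IF. The free-fed libraries spread over a wide range and the fasting ones lay close together under them, with a log2 change of -2.50 ± 0.40 (adjusted p = 1.7e-05). Hspa1a, its near-identical neighbour, was at 112, 51.1, 46.4 and 24.9 FPKM against 8.56, 8.57, 8.68 and 7.89 FPKM (-2.46 ± 0.35). Reads of these copies may have been split between them, so the value of each alone is uncertain. Hsph1, the heat shock protein 110 that recharges heat shock protein 70, fell from 57.1, 43.2, 44.9 and 30.6 FPKM to 14.1, 18.4, 11.7 and 16.9 FPKM (-1.45 ± 0.19, adjusted p = 2.91e-07). Hspa8, the constitutive family member, fell from 534 ± 109.7 to 277 ± 53.7 FPKM (SD, n = 4 each), with a log2 change of -0.94 ± 0.14.

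Of the J-domain cochaperones, which hand clients to heat shock protein 70, Dnaja1 was at 51.7, 37.4, 34.7 and 24.2 FPKM in AL and 10.8, 13.6, 10.8 and 12.3 FPKM in IF (-1.52 ± 0.17, adjusted p = 1.34e-08). Dnajb1 was at 35.1, 19.8, 20.8 and 19.8 FPKM against 9.18, 9.61, 8.84 and 8.82 FPKM (-1.26 ± 0.17, adjusted p = 6.94e-07). AL replicate 1 stood far above the other 3 for this gene, and those 3 still lay above every fasting library. Dnajb4 fell from 18.2 ± 3.47 to 8.28 ± 0.196 FPKM (-1.03 ± 0.12), and the heat shock protein 90 cochaperones Chordc1 and Ahsa2 fell with log2 changes of -0.85 ± 0.12 and -1.12 ± 0.17. Bag3, a cochaperone of selective autophagy named here after its values were seen, fell from 43.5 ± 7.22 to 28.97 ± 2.15 FPKM (-0.56 ± 0.088).

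Falls were smaller among the named genes of the heat shock protein 90 and chaperonin list. Hsp90aa1, the inducible cytosolic form, went from 118 ± 27.3 to 69.3 ± 10.7 FPKM (-0.74 ± 0.16, adjusted p = 0.00266), and Hsp90ab1, the constitutive form, from 479 ± 85.00 to 309 ± 40.02 FPKM (-0.62 ± 0.11, adjusted p = 0.000196). Hspd1, the mitochondrial chaperonin, fell from 69.03 ± 10.8 to 47.7 ± 5.53 FPKM (-0.52 ± 0.087), and Cct4, a subunit of the cytosolic chaperonin ring, from 31.9 ± 2.12 to 23.7 ± 1.27 FPKM (-0.41 ± 0.062). With the 8 libraries fitted alone, Hsp90aa1 (adjusted p = 0.0554), Hsp90ab1 (0.052) and Hspd1 (0.0563) did not pass.

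**Figure D2:**
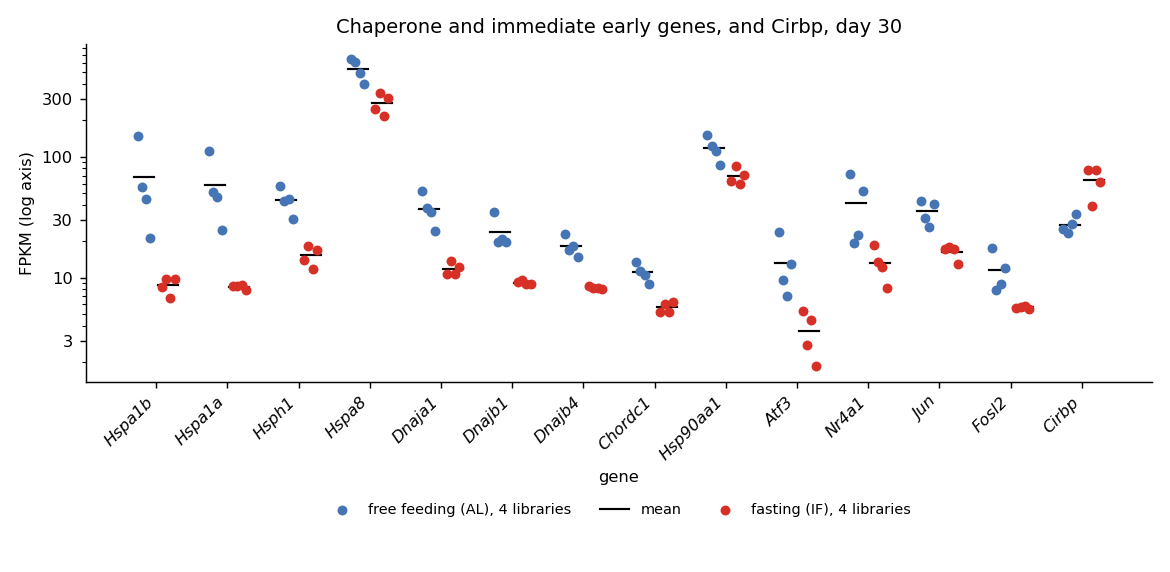
FPKM (log axis) of 9 chaperone and cochaperone genes, 4 immediate early genes and Cirbp in each of the 4 free-fed and 4 fasting libraries of sham mice on day 30, with group means as bars and libraries in replicate order within a group. Every gene but Cirbp has all fasting libraries below all free-fed ones, and AL replicate 1 is the highest library for each of the 9 chaperones.

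The chaperone level differed more among free-fed libraries than among fasting ones. The mean log2(FPKM + 1) over the heat shock protein 70 and 110 list was 4.93, 4.64, 4.55 and 4.25 in the AL libraries and 3.85, 3.98, 3.73 and 3.90 in the IF libraries. AL replicate 1 was the highest and AL replicate 4, the most deeply sequenced of the 8, the lowest of the free-fed libraries in all 3 lists, and replicate 4 still lay above every fasting library in each.

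The promoter of Hspd1 is shown because it holds 2 overlapping copies of the heat shock element in a gene that fell. The element was searched on both strands as GAANNTTC followed by NNGAA, or TTCNNGAA followed by NNTTC. It was in 5 of 29 promoters of the 21 chaperone genes that fell and have an entry (17.2%), against 0.603% of all promoters. The 5 belonged to 4 genes, Chordc1, Hspd1, Hspe1 and Hsph1. Of chaperone genes that did not pass, 2 of 28 promoters (7.14%) held it, both of Dnajb6. Capitals mark the matches in the 80 bases, 5′ to 3′ on the gene's strand.
Hspd1 (chr1:55088028-55088107, minus strand): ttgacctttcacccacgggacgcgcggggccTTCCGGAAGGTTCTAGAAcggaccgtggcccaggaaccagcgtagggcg
The same stretch on the other strand lies before the start of Hspe1, which encodes the cochaperonin and was named after its values were seen. Hspe1 went from 87.6 ± 8.23 to 65.1 ± 4.61 FPKM (-0.42 ± 0.13, adjusted p = 0.0375), and did not pass without AL replicate 1, 2 or 3 or IF replicate 1, 2 or 3 (adjusted p up to 0.153).

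Of 32 immediate early genes tested, 12 fell with fasting, 20 did not pass and none rose (3.12% of all genes were lower), with a median of -0.49. Without AL replicate 1 the 12 became 3. Jun, a subunit of AP-1, was at 43.2, 30.9, 26.3 and 41.04 FPKM in AL and 17.3, 17.8, 17.3 and 12.9 FPKM in IF (-1.05 ± 0.23, adjusted p = 0.00276). Ier5, which acts with Hsf1, fell from 22.9 ± 4.29 to 13.7 ± 2.14 FPKM (-0.70 ± 0.11), and the AP-1 subunit Fosl2 from 11.6 ± 4.35 to 5.71 ± 0.144 FPKM (-0.85 ± 0.16). The stress factor Atf3 was at 23.8, 9.60, 6.99 and 12.97 FPKM in AL and 5.31, 2.80, 4.46 and 1.85 FPKM in IF (-1.58 ± 0.39). The orphan receptor Nr4a1 was at 71.4, 19.4, 22.4 and 52.2 FPKM against 18.8, 13.4, 12.4 and 8.27 FPKM (-1.43 ± 0.41, adjusted p = 0.028). Fos overlapped between the diets, at 9.42, 9.13, 5.41 and 8.14 FPKM against 10.1, 3.03, 3.67 and 4.61 FPKM, and did not pass (adjusted p = 0.458).

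AL replicate 1 weighed most on this list. With the 8 libraries fitted alone 6 of the 32 fell, and Fosl2 did not pass (adjusted p = 0.0583). Without AL replicate 1, Klf4 and Cebpb no longer passed (adjusted p = 0.0701 and 0.0766). Atf3 failed without AL replicate 1 or IF replicate 4 (adjusted p up to 0.0923), and Nr4a1 without AL replicate 1 or 4 or IF replicate 3 or 4 (up to 0.185). Jun and Ier5 passed without any 1 of the 8. The list mean was 4.55 in AL replicate 1, 4.00 to 4.27 in the other AL libraries and 3.63 to 3.86 in IF.

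In the integrated stress response list, 3 of 16 fell, which were Atf3, Cebpb and Atf4 (3.12% of all genes were lower). Atf4, the translationally controlled factor of that pathway, was at 89.6, 83.9, 78.3 and 83.05 FPKM against 61.00, 57.9, 51.7 and 54.8 FPKM (-0.56 ± 0.091, adjusted p = 2.02e-05). None of 21 endoplasmic reticulum stress genes passed, Xbp1 included (-0.26 ± 0.10, adjusted p = 0.142).

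Cirbp, an RNA-binding protein whose level rises on mild cooling and follows the daily temperature rhythm, went against the chaperones. It was at 25.2, 23.2, 27.7 and 33.6 FPKM in AL and 77.6, 39.5, 77.3 and 61.7 FPKM in IF, without overlap (1.16 ± 0.21, adjusted p = 0.000189). The splicing factor Srsf5 rose as well (0.38 ± 0.10), though not without AL replicate 1 or 2 or IF replicate 1 or 3 (adjusted p up to 0.101). Rbm3, another cold-inducible RNA-binding protein, was at 14.2 ± 0.925 FPKM in AL and 18.5 ± 3.79 FPKM in IF and did not pass (adjusted p = 0.149). In all, 2 of 5 genes of this list rose (1.7% of all genes were higher).

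In lipid and sugar metabolism, 8 of 27 cholesterol synthesis and sterol regulation genes fell, 19 did not pass and none rose (3.12% of all genes were lower), with a median of -0.17. Cyp51, a demethylase of the sterol pathway, was at 15.9, 13.2, 12.1 and 11.2 FPKM in AL and 8.12, 8.87, 8.74 and 7.09 FPKM in IF (-0.61 ± 0.13, adjusted p = 0.00131). Hmgcs1, which makes the HMG-CoA that enters the pathway, was at 27.5, 23.9, 21.4 and 22.4 FPKM against 16.99, 18.1, 17.8 and 17.5 FPKM (-0.41 ± 0.093, adjusted p = 0.00371). Srebf2, the factor that drives these genes, fell from 24.2 ± 1.40 to 20.2 ± 1.66 FPKM (-0.25 ± 0.061), but not without IF replicate 2 (adjusted p = 0.0621). Without AL replicate 1, 3 of the 27 fell, as many as with the 8 libraries fitted alone.

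The promoter of Hmgcs1 is shown because, of 5 promoters of sterol genes that fell, it was the 1 with the sterol regulatory element TCACCCCAC on either strand (20%, against 0.551% of all promoters). The motif is in capitals, and the bases run 5′ to 3′ on the gene's strand.
Hmgcs1 (chr13:119690178-119690257, plus strand): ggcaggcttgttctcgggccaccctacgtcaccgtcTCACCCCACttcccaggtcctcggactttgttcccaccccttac

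Inmt, a methyltransferase of small amines, had a rise next in size to that of Dbp, at 7.81, 9.31, 9.80 and 9.29 FPKM in AL and 28.03, 30.04, 32.6 and 26.5 FPKM in IF (1.59 ± 0.19, adjusted p = 2.95e-08). With Aox1 (aldehyde oxidase, 0.54 ± 0.10) and Ephx1 (microsomal epoxide hydrolase, 156 ± 3.53 to 190.0 ± 4.88 FPKM) it made 3 of 20 detoxifying enzymes that rose (1.7% of all genes were higher), and 19 of the 20 had a log2 change above 0. Txnip, an inhibitor of thioredoxin that responds to glucose, was at 68.00, 74.9, 77.4 and 62.3 FPKM against 127, 122, 122 and 124 FPKM (0.81 ± 0.10, adjusted p = 8.88e-08). Pik3ip1, a PI3 kinase inhibitor, rose from 9.91 ± 1.16 to 16.6 ± 2.26 FPKM (0.69 ± 0.13), and these were the 2 of 27 FoxO and insulin-responsive genes that changed (4.82% of all genes did). All 5 of these calls held without any 1 of the 8 libraries.

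In fatty acid oxidation, 3 of 39 genes rose and 1 fell (1.7% of all genes were higher and 3.12% lower). Acaa2, a mitochondrial thiolase, went from 44.2 ± 3.14 to 58.9 ± 3.24 FPKM (0.41 ± 0.08), and Cpt1a, the entry enzyme of the carnitine shuttle, from 22.8 ± 0.474 to 28.4 ± 1.73 FPKM (0.30 ± 0.072). The fatty acid carrier Cd36 rose and the nuclear receptor Ppard fell by small steps (0.43 ± 0.13 and -0.29 ± 0.084), and Cd36 did not pass without AL replicate 1, 2, 3 or 4 or IF replicate 1, 2 or 3 (adjusted p up to 0.171), nor Ppard without AL replicate 1, 2 or 3 or IF replicate 1 or 3 (up to 0.144). Pdk1, which holds pyruvate back from oxidation, rose from 3.69 ± 0.155 to 5.66 ± 0.644 FPKM (0.50 ± 0.10).

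Of genes known to respond to a fast in liver, Cpt1a passed, as given above, while Pdk4 (0.35 ± 0.20) and Angptl4 (0.48 ± 0.35) did not. Of 26 glucocorticoid-responsive genes, none rose and 2 fell, which were Cebpb and Errfi1 (3.12% of all genes were lower). The median log2 change of the 26 was 0.11, with 18 above 0 and 8 below. Fkbp5 (0.24 ± 0.26) and Tsc22d3 (0.21 ± 0.19), common readouts of the glucocorticoid receptor, did not pass. Without AL replicate 1 neither Cebpb nor Errfi1 passed (adjusted p up to 0.0766 and 0.268), and Errfi1 also failed without AL replicate 2 or 3 or any 1 IF library. No gene passed among 78 cytosolic ribosomal proteins and 78 nuclear subunits of oxidative phosphorylation.

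Few genes of most vessel wall lists passed. Of the genes tested, 2 of 15 matricellular genes, 2 of 24 in the collagen list, 1 of 17 in the elastic fibre list, 1 of 14 metalloproteases and inhibitors and 2 of 12 plasminogen activators and inhibitors fell, and none of these lists held a rise (3.12% of all genes were lower). The medians of these lists lay between -0.062 and 0.066 on the log2 scale. Of 13 Kruppel-like factors, 3 fell and none rose, with a median of -0.16, and 1 fell without AL replicate 1. In the TGF-beta and BMP list, 2 of 30 fell and none rose. Thbs1, the matricellular thrombospondin that activates TGF-beta and opposes angiogenesis, was at 106, 83.9, 85.8 and 96.6 FPKM in AL and 33.2, 32.8, 32.3 and 35.2 FPKM in IF. Both groups were tight and far apart, with a log2 change of -1.45 ± 0.20 (adjusted p = 1.51e-06). Spon2, a secreted spondin, fell from 7.55 ± 1.63 to 3.48 ± 0.667 FPKM (-0.93 ± 0.17). These were the matricellular genes that changed. Lox, which crosslinks collagen and elastin, was at 34.6, 33.8, 36.1 and 37.9 FPKM against 20.9, 24.8, 22.2 and 25.7 FPKM (-0.59 ± 0.13, adjusted p = 0.00195). P4ha1, a collagen prolyl hydroxylase, fell from 33.3 ± 7.22 to 18.5 ± 3.38 FPKM (-0.81 ± 0.14). In the collagen list, the 2 that fell were the modifying enzymes P4ha1 and Plod2, and no collagen chain passed. Plod2 failed without AL replicate 1 or 3 or IF replicate 3 (adjusted p up to 0.0768).

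Both plasminogen activators, which start fibrinolysis, fell: Plat from 49.2 ± 3.60 to 34.9 ± 1.81 FPKM (-0.48 ± 0.088) and Plau from 9.96 ± 0.768 to 6.44 ± 0.681 FPKM (-0.56 ± 0.14). The growth factor Bmp2 was at 16.01, 13.1, 12.8 and 10.7 FPKM in AL and 7.88, 6.10, 7.47 and 7.29 FPKM in IF (-0.78 ± 0.13, adjusted p = 4.78e-05). Abra, an actin-binding activator of Srf in muscle, fell from 7.96 ± 0.983 to 3.10 ± 0.334 FPKM (-1.13 ± 0.21). The metalloprotease Adamts1 was at 53.4, 28.6, 26.3 and 31.8 FPKM against 16.8, 18.2, 16.5 and 15.2 FPKM (-0.97 ± 0.22) and did not pass without AL replicate 1 (adjusted p = 0.0576). Srf was the 1 of 20 contractile list genes that fell (3.12% of all genes were lower). Its log2 change was -0.42 ± 0.11, and it did not pass without AL replicate 1 or IF replicate 3 or 4 (adjusted p up to 0.0977). Vegfd, a lymphangiogenic growth factor, rose from 3.00 ± 0.693 to 4.84 ± 0.368 FPKM (0.56 ± 0.11). Npy1r, a vasoconstrictor receptor for neuropeptide Y, fell from 31.6 ± 2.23 to 21.4 ± 2.26 FPKM (-0.54 ± 0.13).

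Most genes that define the wall did not pass. Acta2 was at 5868 ± 739.7 FPKM in AL and 5339 ± 791 FPKM in IF, and Myh11 at 493 ± 96.2 and 462 ± 70.9 FPKM. The endothelial genes Pecam1 (-0.056 ± 0.13), Cldn5 (0.18 ± 0.15), Nos3 (0.14 ± 0.14) and Edn1 (-0.089 ± 0.19), and the hypoxia genes Vegfa (-0.045 ± 0.12) and Hif1a (-0.11 ± 0.089), did not pass either. No member passed among 16 endothelial, 12 pericyte, 18 fibroblast and meningeal, 15 basement membrane, 17 calcium-handling, 14 potassium channel and 27 blood-brain barrier genes. Of 14 arterial endothelial and 16 Notch pathway genes, 1 fell in each (3.12% of all genes were lower). It was the Notch ligand Dll4 in both (-0.48 ± 0.14). Of 25 genes of endothelin, nitric oxide and angiotensin signalling, 2 rose (1.7% of all genes were higher). They were Ddah1, the enzyme that degrades an inhibitor of nitric oxide synthase (0.49 ± 0.14), and the endothelin ligand Edn3 (0.49 ± 0.14). Dll4 failed without AL replicate 1, 2 or 3 or IF replicate 1 or 3 (adjusted p up to 0.205). Ddah1 failed without AL replicate 2 or 4 or IF replicate 2 or 4 (up to 0.108). Edn3 failed without AL replicate 2, 3 or 4 or IF replicate 2, 3 or 4 (up to 0.146). None of these 3 passed with the 8 libraries fitted alone. Neither Ddah1 nor Edn3 passed with the level of brain cell markers as a covariate, a fit given below. A test on simulated data for this comparison (15707 genes, 100 changed by each size) recovered 95% of genes changed by 1 and 65% of those changed by 0.5 on the log2 scale. The changed genes had a mean log2(FPKM + 1) over 1, and the noise of a gene was normal with the same spread in all groups. Smaller differences, and differences of lower genes or of groups with a wider spread, could thus have been missed.

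In the inflammation lists, 2 of 10 acute phase genes (Stat3 and Osmr) and 1 of 15 inflammasome and cytokine genes fell, and none rose (3.12% of all genes were lower). Stat3, the factor that carries interleukin-6 and oncostatin signals, fell from 20.6 ± 1.28 to 16.4 ± 0.802 FPKM (-0.31 ± 0.074), and the oncostatin receptor Osmr fell from 8.48 ± 1.097 to 6.20 ± 0.516 FPKM (-0.39 ± 0.11). Osmr did not pass without AL replicate 1 or 3 or IF replicate 3 (adjusted p up to 0.126). The third was Rela, a subunit of NF-kappaB (-0.29 ± 0.068), which did not pass without AL replicate 1 (adjusted p = 0.0684). None of 25 chemokine and adhesion genes, 22 interferon response genes or 15 complement genes passed.

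On day 30, some markers of brain cells that can adhere to dissected arteries differed between the diets. Gpr34, a microglial receptor, was at 1.78, 2.28, 2.05 and 1.87 FPKM in AL and 3.45, 3.69, 3.21 and 4.11 FPKM in IF (0.62 ± 0.13, adjusted p = 0.00188). With P2ry12 (0.43 ± 0.13) it made 2 of 8 microglial markers that rose (1.7% of all genes were higher). The summed level of the 8 was 83.3 to 98.8 FPKM in AL and 104 to 110.45 FPKM in IF. P2ry12 failed without AL replicate 1, 3 or 4 or IF replicate 2, 3 or 4 (adjusted p up to 0.129). The median log2 change of the 8 markers was 0.24 on day 30, 0.015 over the other sham days and -0.12 after BCAS on day 30. Against the same diet on the other sham days, their median was -0.16 in free-fed and 0.062 in fasting arteries of day 30. Gpr34 had a median of 2.75 FPKM in the 16 free-fed sham libraries of the other days. Of 11 astrocyte markers, 1 rose, which was Slc1a2, the glial glutamate transporter (0.87 ± 0.24), and the sums overlapped, at 279.51 to 365 FPKM in AL and 287 to 413 FPKM in IF. Slc1a2 was at 4.84, 5.02, 6.53 and 3.24 FPKM against 5.09, 13.3, 8.80 and 13.5 FPKM, and failed without AL replicate 1 or 4 or IF replicate 2 or 4 (adjusted p up to 0.118). The part of adhering brain tissue in the other results was not tested beyond the covariate fit given next.

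No neuronal (12 tested), oligodendrocyte (11), macrophage (14), pituitary (7) or red blood cell (7) marker passed. The log2 change was above 0 for all 12 neuronal, 10 of 11 oligodendrocyte, 10 of 11 astrocyte and 12 of 14 macrophage markers. It was below 0 for 6 of 7 red blood cell markers. The medians were 0.23 (neuronal), 0.20 (astrocyte) and 0.042 (oligodendrocyte), against -0.047, -0.025 and 0.0025 over the other sham days. The 9 red blood cell markers summed to 130.1 to 430.47 FPKM in AL and 65.8 to 152 FPKM in IF. The mean log2 level of the neuron, astrocyte and oligodendrocyte lists was 2.15 to 2.51 in AL and 2.32 to 2.70 in IF. With this mean as a covariate 684 genes differed (242 higher, 442 lower), and P2ry12, Slc1a2, Ddah1 and Edn3 were among those that no longer passed. Of the marker lists, only the skeletal muscle list had a gene at 0 in all 8 libraries, which was Tnnc2.

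Next, the day 30 difference was set beside the mean difference of sham days 1, 7, 14 and 21, which uses no library of day 30. On those days together 2674 genes passed (17%), 1353 higher (8.61%) and 1321 lower (8.41%). Of the 757 genes of day 30, 738 had the same sign there (97.5%, against 68.5% of all genes tested), and 526 also passed. That is 69.5% of the day 30 genes and 19.7% of the 2674, and no gene passed with opposite signs. In the test of the difference itself, day 30 minus the mean of the other days by limma, 0 genes passed (0% of 15707, with 964 at an unadjusted p under 0.05, and 0 with limma-voom), and the smallest adjusted p was 0.217. No gene was thus shown to respond differently on day 30.

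Among the clock genes, Dbp changed by 1.88 ± 0.13 as the mean of the other days against 1.93 on day 30, Tef by 0.93 ± 0.06 against 0.92, Per3 by 1.02 ± 0.059 against 1.19, Arntl by -1.04 ± 0.075 against -1.12 and Tspan4 by 0.98 ± 0.06 against 0.99. Nfil3 changed by -1.44 ± 0.091 against -2.15, Noct by -0.23 ± 0.063 against -0.52, and Per2 by 0.92 ± 0.091 against 0.63. Per1, which did not pass on day 30, had log2 changes of 0.64 ± 0.11 and 0.42. The difference between the sides did not pass for Nfil3 (adjusted p = 0.383), Noct (0.811), Per2 (0.89) or Per1 (0.951). By single day, the Dbp difference was 0.87, 2.26, 2.08 and 2.31 on days 1, 7, 14 and 21, and that of Nfil3 was -0.88, -1.67, -1.76 and -1.44. Inmt (1.44 ± 0.097), Spon2 (-0.98 ± 0.085) and Cirbp (0.94 ± 0.11) also passed on the other days.

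For several chaperones and for Thbs1 the day 30 value was the larger. This held generally for the 757 genes, which were called by their day 30 values. Their median log2 change in the day 30 direction was 0.37 on day 30, 0.17 over the other sham days and 0.15 after BCAS on day 30. Hspa1a changed by -0.93 ± 0.18 over the other days against -2.46 on day 30, Dnaja1 by -0.70 ± 0.089 against -1.52, Dnajb1 by -0.38 ± 0.088 against -1.26 and Thbs1 by -0.66 ± 0.10 against -1.45. By single day, the Hspa1a difference was -0.15, -1.53, -1.41 and -0.65 on days 1, 7, 14 and 21. Hspa8 (-0.99 against -0.94), Hsp90aa1 (-0.82 against -0.74), Hsp90ab1 (-0.72 against -0.62) and Hspd1 (-0.55 against -0.52) fell more on day 14 than on day 30. The difference of differences was -0.87 for Dnajb1 (adjusted p = 0.217) and -0.79 for Thbs1 (adjusted p = 0.383), and neither passed. Bcorl1, a corepressor subunit, and Bcan, a proteoglycan of brain matrix, shared the smallest adjusted p of this test with Dnajb1 (-0.40 and 0.98), ahead of Engase (0.49) and Etfbkmt (0.60). With 3 libraries left out that held an unusual share of fragments from short genes, Dnajb1 and Bcorl1 passed (adjusted p = 0.0438 for both). Single omissions also brought calls: Dnajb1 without sham AL day 7 replicate 2 (0.04), Dnaja1 without sham AL day 30 replicate 4 (0.0352) and Bcan without sham IF day 30 replicate 1 (0.0482). The immediate early list had a median of -0.07 over the other days, with 5 lower and 1 higher, and the endoplasmic reticulum stress list had 17 of 21 lower there. For the lists, the difference between days was not tested.

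**Figure D3:**
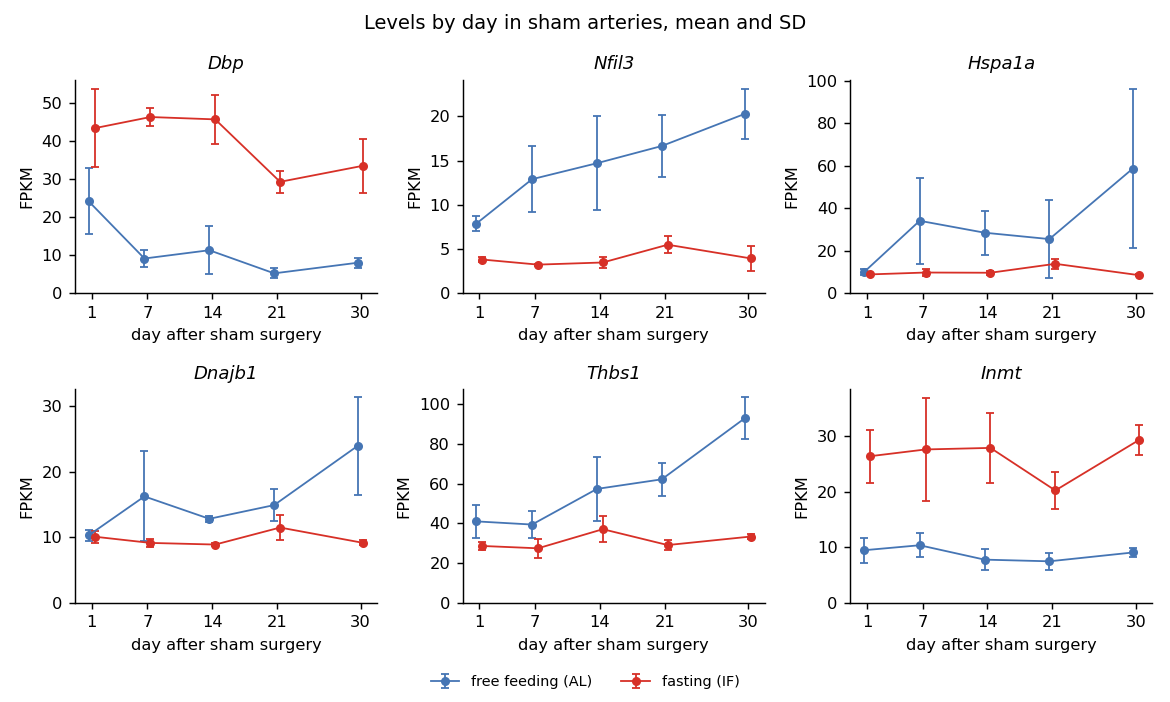
FPKM of 6 genes in sham arteries by day after surgery (mean with SD over 4 libraries, 3 for fasting on day 7), free feeding in blue and fasting in red. On every day the mean of Dbp and of Inmt is higher and that of Nfil3 lower with fasting, and the free-fed means of Hspa1a, Dnajb1 and Thbs1 are highest on day 30.

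After carotid stenosis, 212 genes differed between the diets on day 30 (1.35%), 119 higher (0.758%) and 93 lower (0.592%). Of the 757 sham genes, 669 had the same sign there (88.4%, against 62.5% of all genes), and 77 also passed, which is 10.2% of the sham genes and 36.3% of the 212. Dbp (1.63, adjusted p = 3.82e-05), Tef (1.13), Per3 (1.22), Nfil3 (-1.45), Arntl (-1.30), Inmt (1.40) and Spon2 (-1.08) passed after BCAS as well. Hspa1a (-0.59, adjusted p = 0.469), Dnajb1 (-0.082, adjusted p = 0.889), Jun (0.16) and Nr4a1 (0.66) did not. With the 8 BCAS libraries of day 30 fitted alone the count was 60.

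In the test of the diet effect between surgeries on day 30 by limma, 0 genes passed (0%, with 1016 at an unadjusted p under 0.05, and 0 with limma-voom). Its smallest adjusted p was 0.0641, for Prkab1, a subunit of the energy sensor AMPK. Prkab1 was at 9.02 ± 0.456 FPKM in sham AL and 12.9 ± 0.739 FPKM in sham IF (0.47 ± 0.076), against a change of -0.075 after BCAS. Dnajb1 came next, with a difference of -1.18 (adjusted p = 0.0684), then Coq10b (-0.85), Ell2 (-0.51) and Dnajb4 (-0.77). Both Prkab1 and Dnajb1 passed when the filter was raised to 5 FPKM in 4 libraries (adjusted p = 0.0341 and 0.0363) and with the same 3 libraries left out (0.0283 and 0.00943). Prkab1 also passed without BCAS AL replicate 1 (0.0343) or BCAS IF replicate 1 (0.022).

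**Figure D4:**
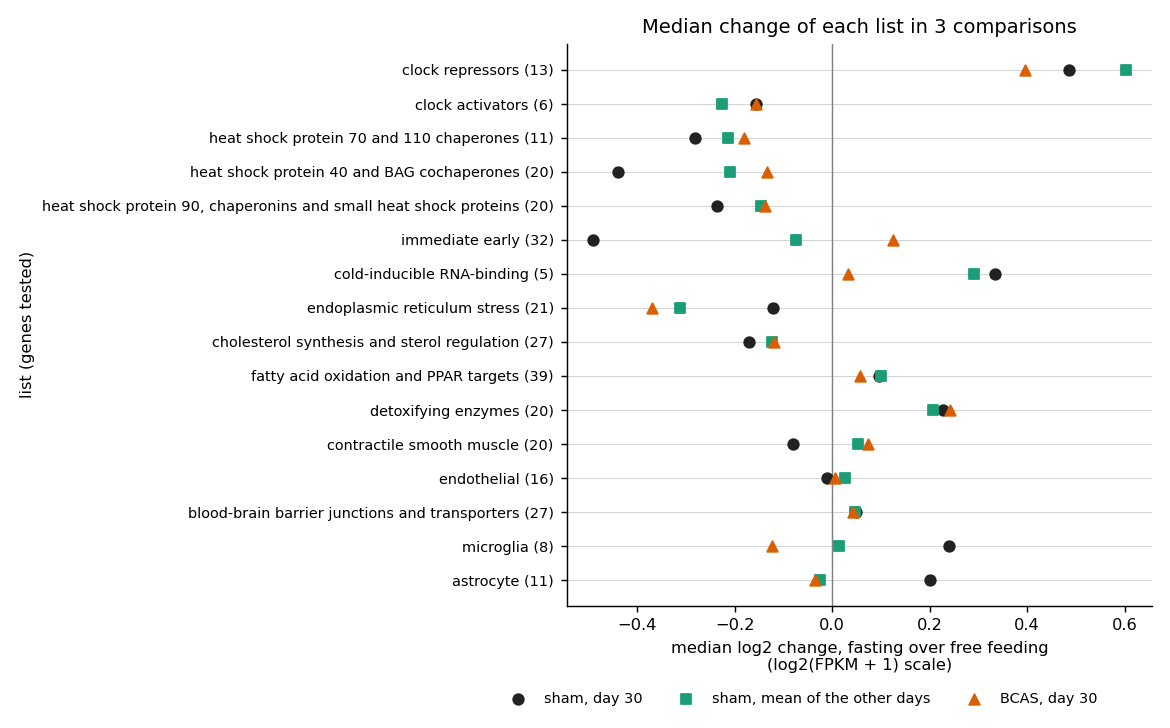
Median log2 change with fasting of 16 gene lists (number of genes tested in brackets) in sham arteries on day 30 (circles), over the other sham days (squares) and after BCAS on day 30 (triangles). The clock repressor medians are 0.49, 0.60 and 0.39, and the immediate early medians are -0.49, -0.07 and 0.12, in that order.

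Each diet group of day 30 was last set against the same diet on the other sham days. These comparisons share the day 30 libraries with the diet comparison, so their values are given side by side only. Free-fed arteries of day 30 differed from the mean of the other free-fed days in 119 genes (0.758%), 93 higher (0.592%) and 26 lower (0.166%). Fasting arteries differed by limma in 0 genes (0%, with 834 at an unadjusted p under 0.05). Higher in the free-fed arteries of day 30 were Hspa1a (1.27 ± 0.28), Dnajb1 (0.78 ± 0.14), Dnajb4 (0.57 ± 0.099), Dnaja1 (0.55 ± 0.14), Jun (0.77 ± 0.18), Thbs1 (0.93 ± 0.16), Nfil3 (0.67 ± 0.14) and Bmp2 (0.54 ± 0.10). In fasting arteries the log2 differences of the same genes were -0.25, -0.095, 0.029, -0.27, -0.059, 0.14, -0.038 and 0.17, and none passed. Thbs1 ran from 28.3 to 80.3 FPKM with a median of 47.3 FPKM in the 16 other free-fed sham libraries, and the 4 of day 30 lay above all of these. The clock genes Dbp and Per3 stood at -0.33 ± 0.20 and -0.10 ± 0.092 in free-fed arteries and did not pass.

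This free-fed count rested on the model and on single libraries. It was 9 without AL replicate 1, 18 without replicate 3, 31 without replicate 4 and 178 without replicate 2, and 0 when only the free-fed sham groups were fitted. Thbs1 passed in each of the 4 fits that left out a day 30 library (adjusted p from 0.00475 to 0.0307). Without AL replicate 1, Dnajb1 (0.59, adjusted p = 0.0797), Dnajb4 (0.46, adjusted p = 0.0696), Hspa1a (0.90, adjusted p = 0.233), Dnaja1 (0.38), Jun (0.67), Nfil3 (0.60) and Bmp2 (0.45) did not pass. Dnaja1 also failed without replicate 2 or 3 (adjusted p = 0.0678 and 0.122), Hspa1a and Nfil3 without replicate 3 (0.0626 and 0.054), and Jun without replicate 4 (0.135).

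**Figure D5:**
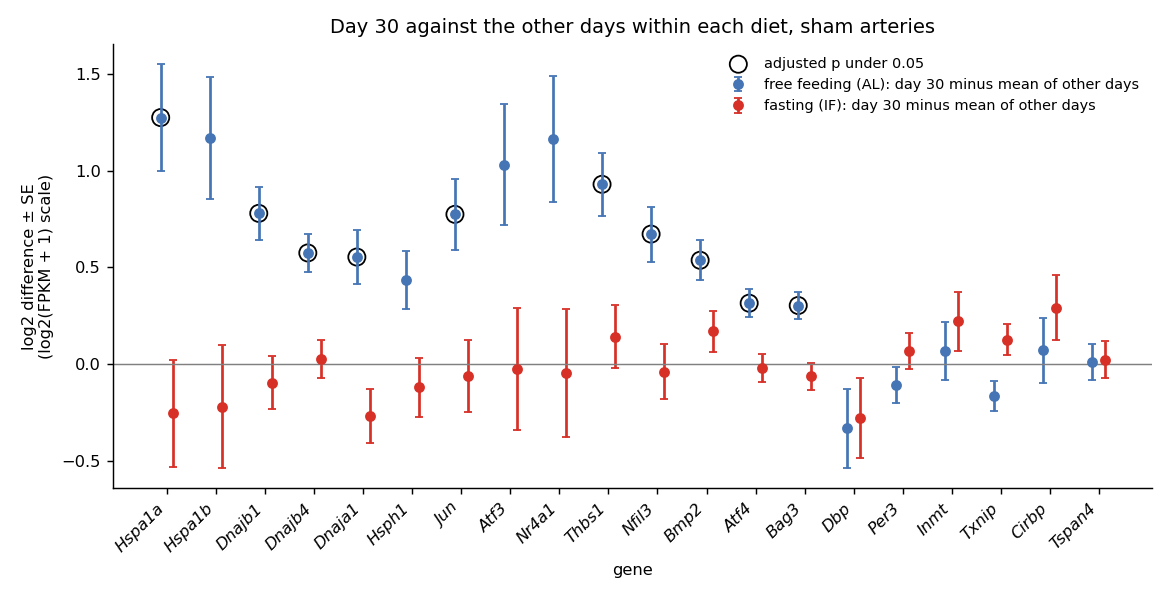
Log2 difference (with SE) of day 30 from the mean of the other days within free-fed (blue) and fasting (red) sham arteries for 20 genes, with rings around values at an adjusted p under 0.05. The rings are all on free-fed values above 0, and the fasting values run from -0.28 (Dbp) to 0.29 (Cirbp).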

How the data were processed

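RNA of cerebral arteries was extracted with an RNeasy mini kit and sequenced from 2 ug of total RNA, per the labels' protocols. The authors deposited 1 table of FPKM for 54532 genes and 78 libraries, per the file headers. The submitters' processing notes name DESeq 1.10.1 without its role, and the aligner, counter, build, annotation and use of strand are not given in the sources used here, so reads of overlapping and antisense genes cannot be told apart. Of the gene identifiers, 54409 are in GENCODE M21 (GRCm38), 98.3% of them with the same coordinates.

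The 15707 genes that reached 1 FPKM in 3 or more libraries were tested with limma 3.58.1 (statmod 1.5.0, R 4.3.3; trend and robust options) on log2(FPKM + 1), which understates the change of low genes. One mean was fitted for each of the 20 groups over all 78 libraries, so the spread is shared, and p-values were adjusted by Benjamini-Hochberg over all genes with a threshold of 0.05. FPKM values under 1000 fragments were whole multiples of 1 fragment within 0.05 in 100% of cases, which gave 14601572 to 25944175 fragments per library for a limma-voom alternative. No 2 libraries held identical values. The fit was tested on simulated data, with 9 false calls among 15707 genes.

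Genes were named by a rule: the 12 largest rises and falls without overlap between the diets, the 5 smallest p-values in each direction and in each test of a difference, up to 4 genes per list and a panel, of which 1 gene and its list are not reported here. The members and lists were chosen with earlier results of these data known. Promoters came from RefSeq (GRCm38.p6), 32851 of 27025 genes, matched by symbol, and figures were drawn with matplotlib 3.10.9.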

Additional observations from a re-analysis of the deposited data

Results flagged for a closer look

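Of 222 groups of 4 libraries (2 diet groups for each of 111 genes named in the text), 16 had 1 library far from the other 3 by Dixon's criterion (the gap to the nearest library over the range of the group). Chance gives about 1 in 20 such groups. In 7 of these the library was AL replicate 1. It was the highest for Dnajb1 (35.1 FPKM, others 19.8 to 20.8), Cebpb (94.9, others 60.3 to 65.9), Ier5 (29.3, others 20.3 to 21.2) and Errfi1 (66.9, others 46.2 to 47.7), and the lowest for Pik3ip1 (8.18, others 10.3 to 10.6), Pdk1 (3.46, others 3.74 to 3.80) and Bcorl1 (2.06, others 2.14 to 2.15). AL replicate 4 was the lowest for Tsc22d3 (22.8, others 28.8 to 29.6).

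Among the fasting libraries, replicate 2 was the lowest for Aox1 (4.28 FPKM, others 4.70 to 4.76), Srebf2 (17.7, others 20.8 to 21.2) and Klhdc9 (1.60, others 2.58 to 2.78). Replicate 3 was the lowest for Leo1 (3.53, others 4.18 to 4.31) and the highest for Ephx1 (197, others 187 to 188). Replicate 4 was the lowest for Hspa1a (7.89, others 8.56 to 8.68), Jun (12.9, others 17.3 to 17.8) and Mdm2 (6.46, others 7.88 to 8.17).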

How the results depend on the processing

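The diet comparison, with 757 genes, gave 409 with the 8 libraries fitted alone (311 of them among the 757) and 344 to 768 on leaving out 1 library in turn. The other alternatives, which were a pseudocount of 0.1, no filter, a filter of 5 FPKM in 4 libraries, median centring, no trend and robust options, limma-voom, the brain tissue covariate and leaving out the 3 short-gene-rich libraries, gave 550 to 916. With only the compared groups fitted, the other sham days gave 1700 genes, BCAS on day 30 gave 60 and free-fed day 30 against other free-fed days gave 0. The test of day 30 against the other days gave 2 genes without a filter, 2 without the short-gene-rich libraries and 0 to 2 on leaving out 1 library. The test between surgeries gave 1 without a filter, 2 at 5 FPKM, 2 without the short-gene-rich libraries and 0 to 1 on leaving out 1 library. Within free feeding, leaving out a day 30 library gave 9 to 178, and within fasting 0 to 8, alternatives chosen after seeing the data. Within fasting 13 genes passed without a filter. The cause of these shifts was not tested. Of single genes, 3 that did not pass changed sign: on leaving out 1 library in turn the log2 change ran from -0.10 to 0.0057 for Vegfa, from -0.12 to 0.026 for Pecam1 and from -0.16 to 0.026 for Edn1. No paired analysis was possible because the labels give the groups no shared replicate numbers. Depth limits low genes most, since 1 FPKM at 1 kb was 15.8 to 23.02 fragments.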

Other observations

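Further lists held a few changes each (1.7% of all genes were higher and 3.12% lower). Of 15 p53 targets, Mdm2, the ligase that degrades p53, fell from 9.59 ± 0.697 to 7.64 ± 0.796 FPKM (SD, n = 4 each) and the death receptor Tnfrsf10b from 2.63 ± 0.429 to 1.70 ± 0.107 FPKM, while the kinase Plk2 rose from 3.70 ± 0.236 to 5.23 ± 0.534 FPKM. Mdm2 and Tnfrsf10b did not pass without AL replicate 1 (adjusted p up to 0.0869 and 0.0684), nor Mdm2 without IF replicate 4, and Plk2 did not pass without any 1 of the 8 libraries (up to 0.163). Of 20 Nrf2 antioxidant genes, 1 rose, the glutathione transferase Gsta3 (1.60 ± 0.257 to 2.87 ± 0.445 FPKM), and not without AL replicate 1 or IF replicate 3 (adjusted p up to 0.0586). Of 21 hypoxia genes, Pdk1 rose and the prolyl hydroxylases P4ha1 and P4ha2 fell, P4ha2 not without AL replicate 1 or 3 or IF replicate 2, 3 or 4 (adjusted p up to 0.122).

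Stc2, a secreted glycoprotein that restrains IGF release, rose from a mean of 0.753 to 1.88 FPKM (log2 change 0.70 ± 0.13, SE), the 1 of 13 genes of the insulin-like growth factor system that changed. Dgat2, which makes triglycerides, rose from 2.48 ± 0.254 to 4.38 ± 0.908 FPKM, though not without AL replicate 1 or IF replicate 3 or 4 (adjusted p up to 0.113). It was the 1 of 21 lipid and triglyceride synthesis genes that changed (4.82% of all genes did). None of 27 autophagy and lysosome genes, 17 sirtuin and NAD genes or 10 thyroid hormone genes passed.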
